A study of Homo sapiens with 90 samples.

Results

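The genes described are 9 NRF2 target antioxidant genes, SLC7A11, GCLM, GCLC, TXNRD1, SRXN1, NQO1, HMOX1, AKR1B10 and ME1. They were taken as all probe sets whose only gene symbol in the platform annotation is one of these names, which gave 20 of the 54715 probe sets and 9 of the 19774 genes measured. The arrays came from HepaRG, a human hepatoma-derived line that differentiates into hepatocyte-like and biliary-like cells. Cells in 96-well plates received fenbuconazole, imazalil or 2,4-dichlorophenoxyacetic acid (2,4-D) for 24 h at 9 concentrations between 0.001 and 10 µM, with 3 replicates at each concentration, against a common vehicle of 0.2% DMSO, which all treated wells also held. Fenbuconazole and imazalil are azole fungicides and 2,4-D is a phenoxyacetic acid herbicide. RNA was measured on Affymetrix HT HG-U133+ PM arrays, and a level is a log2 value from robust multi-array averaging (RMA). The 3 chemicals were normalized in separate sets of 30 arrays with the same 3 DMSO arrays, so levels are compared within a set only. Replicates carry the codes P1, P2 and P3 in the sample labels, and values for 3 arrays are given in that order.

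NRF2 (gene NFE2L2) is a transcription factor that KEAP1 binds and marks for degradation in unstressed cells. Electrophiles and oxidants modify KEAP1, NRF2 then accumulates, and with a small MAF partner it binds antioxidant response elements near its target genes. In the liver these targets supply cystine and glutathione, reduce thioredoxin and peroxiredoxins, clear quinones and aldehydes, degrade heme and make NADPH. Several of them also answer to other factors, such as SLC7A11 to ATF4 and NQO1 to the aryl hydrocarbon receptor.

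RefSeq promoter windows (GRCh38.p14, 250 bases before to 50 after a start) were matched for 6 of the 9 genes, in 7 windows, because TXNRD1 had windows at more than 1 start. SLC7A11, HMOX1 and AKR1B10 had no window. The core of the antioxidant response element was searched as TGACNNNGC on both strands, with overlapping matches kept. It was found in 4 of these 7 windows, and in 13.3% of the 35116 windows of the same length over all genes. The stretches below hold a match upstream of the start. They come from a gene that passed a test with imazalil (TXNRD1), one that was uneven between arrays (GCLM) and one near the bottom of the scale (ME1). They read 5′ to 3′ on the strand of the gene, and capitals mark the match, which in GCLM and TXNRD1 lies on the opposite strand and so reads GCNNNGTCA.
GCLM, chr1:93909426-93909494, minus strand: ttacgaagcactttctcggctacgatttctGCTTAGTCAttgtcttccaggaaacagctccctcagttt
TXNRD1, chr12:104286900-104286968, plus strand: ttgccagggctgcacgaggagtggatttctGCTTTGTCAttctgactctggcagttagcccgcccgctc
ME1, chr6:83431150-83431218, minus strand: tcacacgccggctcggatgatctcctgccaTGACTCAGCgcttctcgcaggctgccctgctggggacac
The window at the other TXNRD1 start held further matches, which begin 99 and 8 bases before that start. The ME1 window held another after its start. These are not shown. The windows of GCLC, NQO1 and SRXN1 held no match to these letters. A match is a description of the sequence only.

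In these cells 16 of the 20 probe sets lay above the median level of all probe sets. The 3 probe sets of ME1 and 1 of TXNRD1 (1561080_PM_at) lay below it, so a change of these transcripts could have gone unseen. That median was 2.84. GCLC 1555330_PM_at (2.85), NQO1 201467_PM_s_at (2.87) and SLC7A11 207528_PM_s_at (3.10) lay close above it, and the same limit holds for them. The probe set with the highest mean level represents each gene where values are given array by array. Hepatocyte markers were at the top of the scale in DMSO (ALB at 13.22 and SERPINA1 at 13.28 on the log2 scale). Biliary markers lay between 2.46 (EPCAM) and 9.97 (KRT19), and mesenchymal markers between 2.76 (COL1A2) and 9.04 (DCN). Endothelial markers lay between 2.21 (CDH5) and 5.50 (KDR). Immune markers lay between 2.16 (LYZ) and 6.46 (CD14), and PTPRC, which marks leukocytes, was at 2.55. Array medians lay between 2.81 and 2.97.

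At 10 µM against DMSO, SLC7A11 and AKR1B10 rose with fenbuconazole and with imazalil, SRXN1 rose with imazalil, and no member passed with 2,4-D. A probe set was called at a Benjamini-Hochberg adjusted p under 0.05 over all 54715 probe sets in limma. Of the 20 probe sets, 3 passed as higher with fenbuconazole (0.256% of all probe sets did) and 4 with imazalil (0.254% of all). With 2,4-D, 0 passed, among 0% of all probe sets, and 4 of the 20 had an unadjusted p under 0.05, as had 5.55% of all. No member passed as lower with any chemical. The median log2 fold change of the 20 was 0.32 with fenbuconazole, 0.31 with imazalil and 0.10 with 2,4-D, against medians within 0.01 of 0 over all probe sets. The share of all probe sets whose treated arrays lay above all DMSO or low-concentration arrays was not counted. Where such a separation is given below, it only describes the arrays named.

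**Figure D1:**
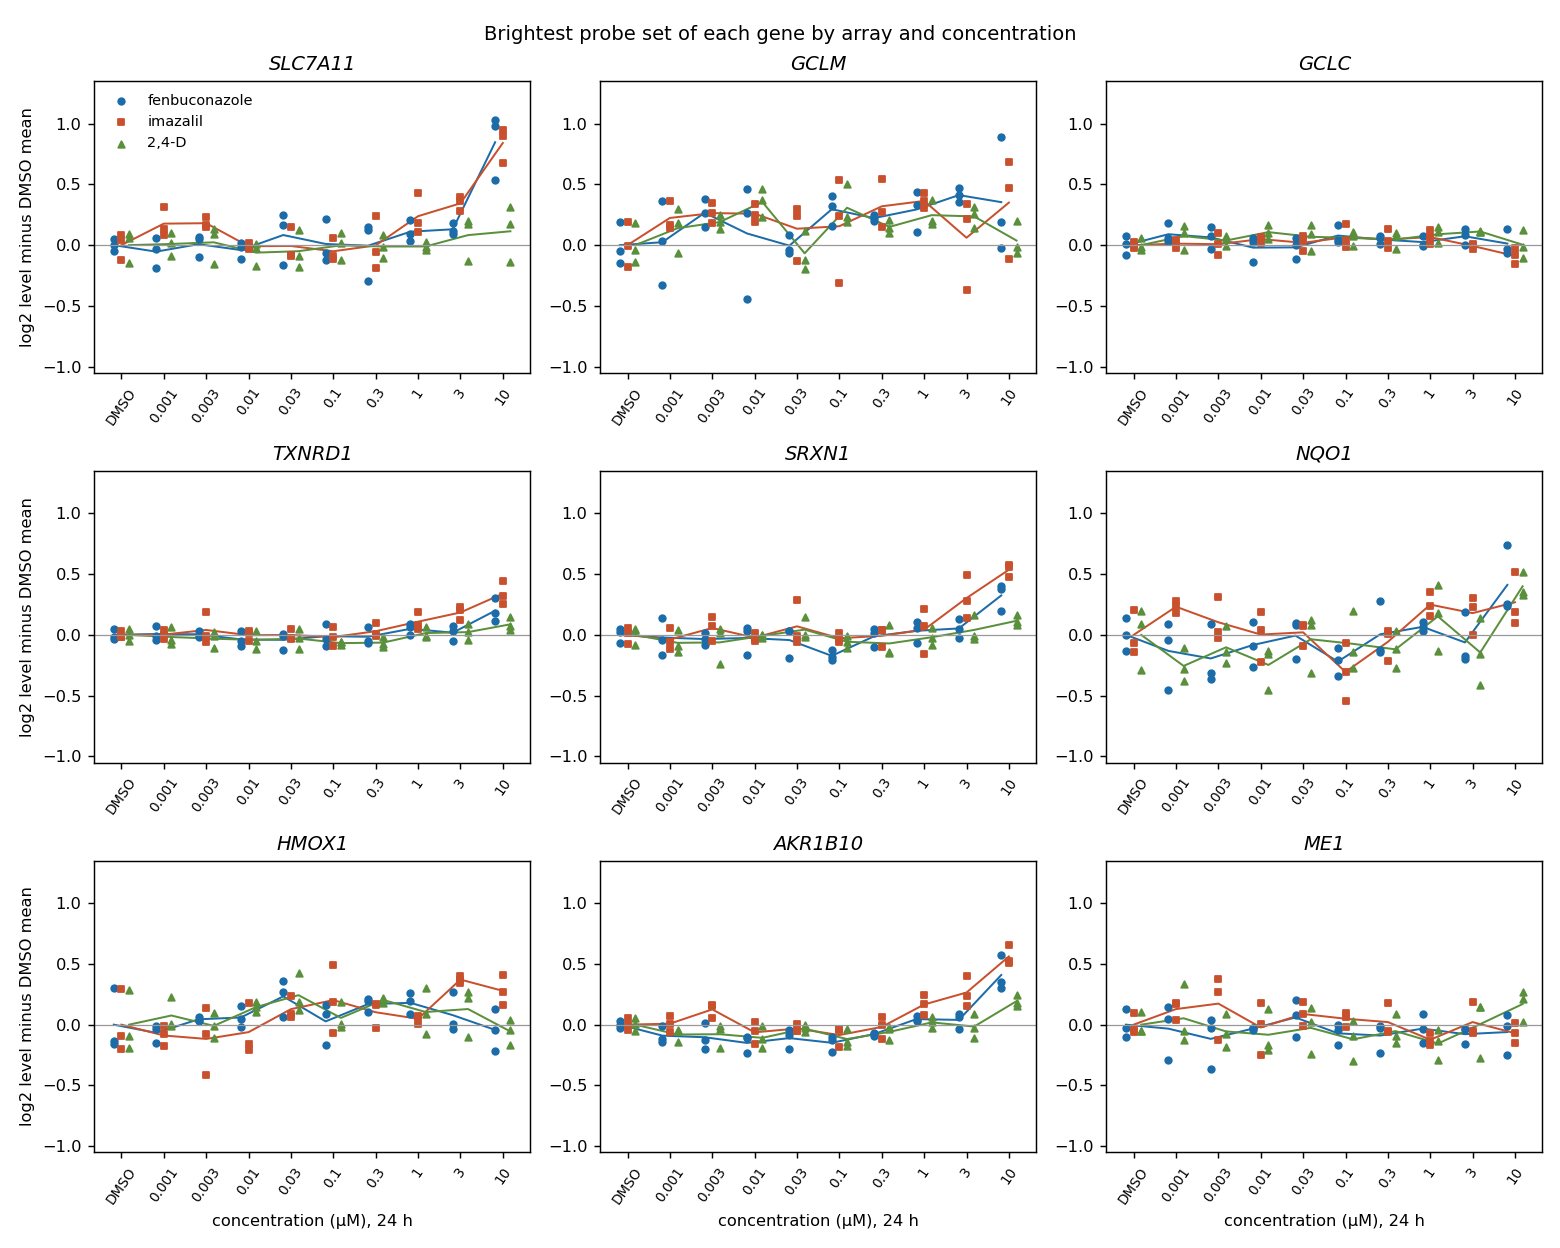
Log2 level of the brightest probe set of each of the 9 genes (y axis, less the average DMSO level in its set) by concentration in µM (x axis, DMSO at the left). Points are single arrays and lines join the means of 3 arrays. SLC7A11 at 10 µM has means of 0.85 with fenbuconazole and 0.84 with imazalil, GCLM is scattered at all concentrations, and GCLC is level.

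The first group supplies glutathione. SLC7A11 is the transport subunit of the cystine-glutamate antiporter, whose cystine feeds glutathione synthesis. Its probe set 209921_PM_at had log2 levels of 6.85, 6.89 and 6.40 in the 10 µM fenbuconazole arrays, against 5.87, 5.91 and 5.82 in DMSO. In the imazalil set it had 6.69, 6.74 and 6.47 at 10 µM, against 5.88, 5.83 and 5.67 in DMSO. All treated arrays of both chemicals lay above all DMSO arrays, and the P3 array was the lowest of the 3 with each chemical. With 2,4-D the levels were 6.08, 6.22 and 5.76 at 10 µM, against 5.97, 5.99 and 5.75 in DMSO, and the groups overlapped.

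The fold change of SLC7A11 was 1.80 with fenbuconazole (log2 0.85, SE 0.13, limma adjusted p = 0.000468) and 1.79 with imazalil (log2 0.84, SE 0.11, limma adjusted p = 4.2e-05). The second probe set, 217678_PM_at, gave 0.87 (SE 0.18, limma adjusted p = 0.0192) and 0.86 (SE 0.16, limma adjusted p = 0.00785) on the log2 scale. The third, 207528_PM_s_at, gave 0.42 and 0.63 with adjusted p of 0.763 and 0.227 in limma, so the 3 probe sets had the same sign and 2 passed. With 2,4-D the log2 fold change of 209921_PM_at was 0.11, with a 95% interval of -0.12 to 0.35. The 0.50 of 207528_PM_s_at with 2,4-D came from arrays at 3.38, 3.24 and 4.44, of which P3 alone was high.

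GCLM, the modifier subunit of glutamate-cysteine ligase, was uneven between arrays. It had 10.09, 9.39 and 9.18 at 10 µM fenbuconazole, against 9.15, 9.05 and 9.39 in DMSO. With imazalil it had 9.78, 8.98 and 9.56, against 9.08, 8.91 and 9.28 in DMSO. The P1 array was the highest of the 3 at 10 µM with both chemicals, and the groups overlapped in both. The log2 fold change was 0.35 with each of them (95% intervals -0.05 to 0.75 and -0.04 to 0.74), and 0.04 with 2,4-D.

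The other 2 GCLM probe sets had positive fold changes with both fungicides, overlapped with DMSO and did not pass. For 236140_PM_at the fold change of 0.69 with fenbuconazole (SE 0.31) was set against a DMSO group in which the P2 array was at 6.32 and the others at 7.20 and 7.58. Against the 15 arrays of the 5 lowest fenbuconazole concentrations the same probe set differed by 0.30 (SE 0.24).

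GCLC, the catalytic subunit of the same enzyme, stayed within a narrow range. It had 9.99, 9.79 and 9.82 at 10 µM fenbuconazole, against 9.86, 9.77 and 9.93 in DMSO, and 9.80, 9.67 and 9.75 at 10 µM imazalil, against 9.85, 9.80 and 9.83 in DMSO. The imazalil arrays were the lower ones, by small steps. The log2 fold changes were 0.01 (95% interval -0.16 to 0.19), -0.09 (-0.25 to 0.07) and 0.00 (-0.16 to 0.17) with fenbuconazole, imazalil and 2,4-D. In the same order 202922_PM_at gave 0.02, 0.02 and 0.03, and 1555330_PM_at gave 0.08, -0.14 and 0.14, and none passed.

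The second group keeps thioredoxin and peroxiredoxins reduced. SRXN1, sulfiredoxin, repairs over-oxidized peroxiredoxins. It had 8.94, 8.96 and 8.86 at 10 µM imazalil, against 8.40, 8.44 and 8.31 in DMSO. It had 8.54, 8.74 and 8.72 at 10 µM fenbuconazole, against 8.36, 8.39 and 8.27 in DMSO. The treated arrays lay above all DMSO arrays with both, and the imazalil step was of nearly the same size in each P code (0.54, 0.52 and 0.55). The log2 fold change was 0.54 with imazalil (SE 0.10, limma adjusted p = 0.0102), and 0.32 with fenbuconazole (SE 0.09, adjusted p = 0.245 in limma), which did not pass. With 2,4-D, where all 3 arrays also lay above DMSO, it was 0.12 (95% interval -0.07 to 0.30).

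TXNRD1 is cytosolic thioredoxin reductase. It had 11.20, 11.32 and 11.14 at 10 µM imazalil, against 10.87, 10.87 and 10.91 in DMSO, and 11.11, 11.23 and 11.04 at 10 µM fenbuconazole, against 10.89, 10.91 and 10.98 in DMSO. Both fungicides placed all 3 arrays above DMSO. The difference was 0.34 with imazalil (SE 0.08, limma adjusted p = 0.0626, and 0.0401 with the P code as a block), and 0.20 with fenbuconazole (SE 0.08, limma adjusted p = 0.635). The dim probe set 1561080_PM_at had fold changes of -0.10 with imazalil, -0.28 with fenbuconazole and -0.25 with 2,4-D on the log2 scale, none of which passed.

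The third group clears reactive carbonyls, quinones and heme. AKR1B10 is an aldo-keto reductase that reduces reactive aldehydes. It had 12.27, 12.49 and 12.22 at 10 µM fenbuconazole, against 11.89, 11.95 and 11.92 in DMSO, and 12.38, 12.51 and 12.36 at 10 µM imazalil, against 11.81, 11.91 and 11.85 in DMSO. With 2,4-D it had 12.10, 12.18 and 12.12, against 11.88, 11.99 and 11.94 in DMSO. Treated arrays lay above every DMSO array with all 3 chemicals, by the smallest step with 2,4-D. That separation was not counted over all probe sets and only describes these arrays. The log2 fold change was 0.41 with fenbuconazole (SE 0.08, limma adjusted p = 0.0181), 0.56 with imazalil (SE 0.08, limma adjusted p = 0.000436) and 0.19 with 2,4-D (SE 0.08, limma adjusted p = 0.812).

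NQO1 reduces quinones to hydroquinones. Its probe set with the highest mean had 4.89, 5.40 and 4.91 at 10 µM fenbuconazole, against 4.65, 4.79 and 4.52 in DMSO. With 2,4-D it had 4.77, 4.93 and 4.74 at 10 µM, against 4.51, 4.61 and 4.13 in DMSO. With imazalil it had 4.82, 5.24 and 4.91, against 4.66, 4.92 and 4.58 in DMSO, and only there did the groups overlap. The log2 fold changes were 0.41 (SE 0.16), 0.40 (SE 0.16) and 0.27 (SE 0.13) with fenbuconazole, 2,4-D and imazalil, and none passed. The other 2 NQO1 probe sets ranged between -0.13 and 0.48.

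HMOX1, heme oxygenase 1, cleaves heme. It had 7.44, 7.31 and 7.19 at 10 µM imazalil, against 7.33, 6.84 and 6.94 in DMSO, and the groups overlapped because the P1 DMSO array was high. At 3 µM imazalil it had 7.44, 7.38 and 7.41, above all DMSO arrays. The 10 µM difference was 0.28 (95% interval -0.01 to 0.57) with imazalil, -0.04 (-0.29 to 0.20) with fenbuconazole and -0.06 (-0.30 to 0.19) with 2,4-D. ME1, the cytosolic malic enzyme that makes NADPH, stayed at the dim end in all arrays, and its 3 probe sets differed from DMSO by -0.10 to 0.17 at 10 µM.

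**Figure D2:**
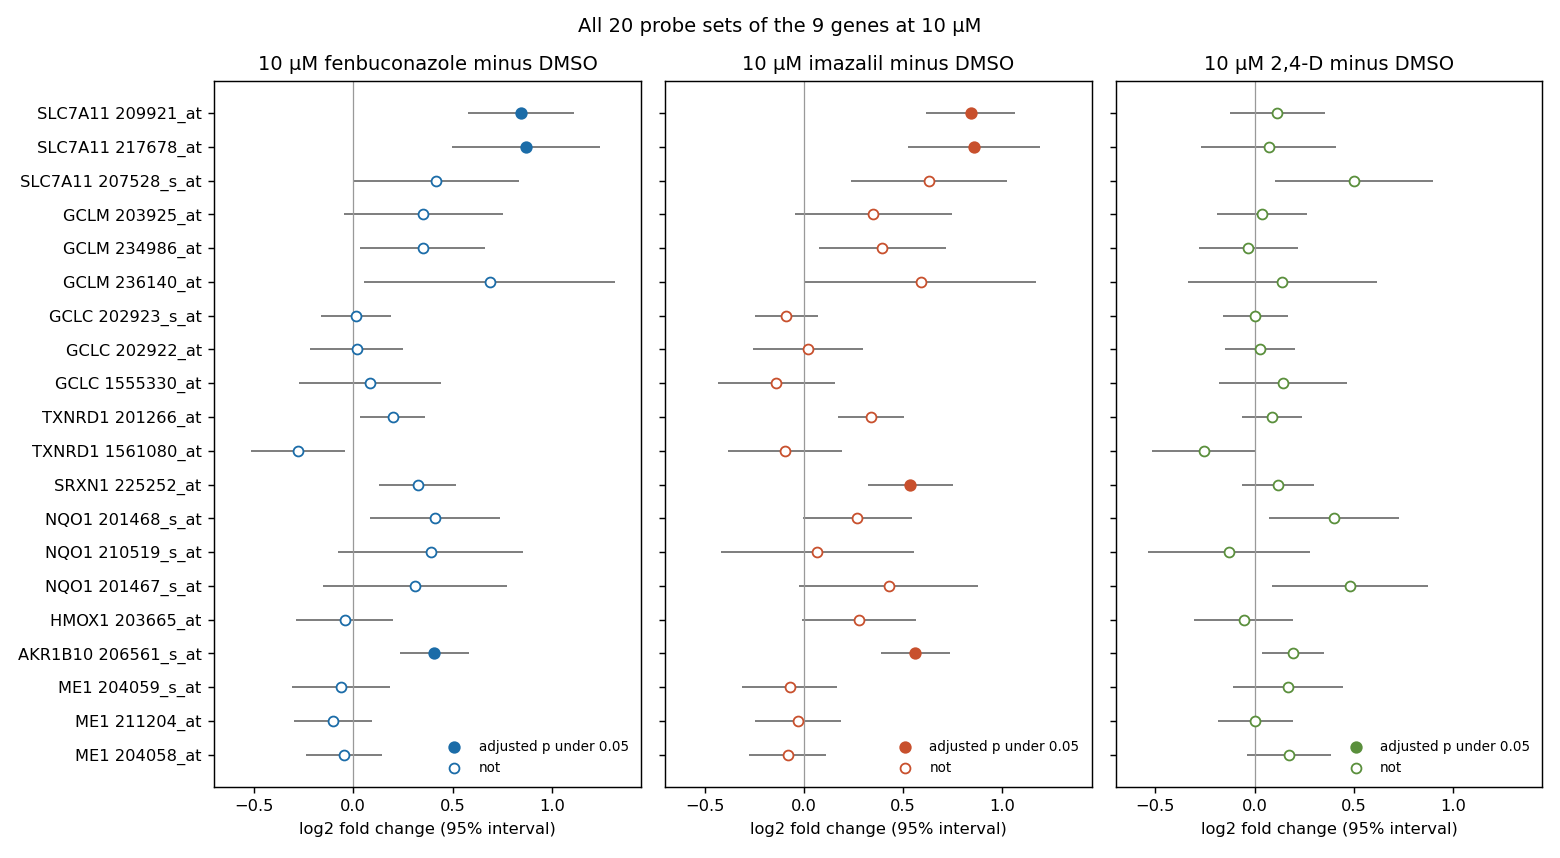
Log2 fold change at 10 µM against DMSO (x axis) of all 20 probe sets (y axis, grouped by gene) for fenbuconazole, imazalil and 2,4-D. Bars are 95% intervals and filled points had an adjusted p under 0.05 over all probe sets, 3 with fenbuconazole, 4 with imazalil and 0 with 2,4-D.

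Calls against DMSO rested on few arrays. With P1, P2 or P3 left out of all groups, the count of 3 with fenbuconazole became 0, 0 and 2, and the count of 4 with imazalil became 2, 0 and 1. Calls over all 54715 probe sets, in either direction, fell as well. They went from 189 to 89, 64 and 127 with fenbuconazole and from 222 to 87, 48 and 67 with imazalil. With the P1, P2 or P3 DMSO array alone left out, the member counts were 1, 1 and 2 with fenbuconazole and 4, 3 and 3 with imazalil. Over all probe sets these settings gave 150, 134 and 162 with fenbuconazole and 180, 129 and 214 with imazalil. The SLC7A11 difference of 209921_PM_at with fenbuconazole was 0.78 both without P1 (limma adjusted p = 0.116) and without P2 (limma adjusted p = 0.252). AKR1B10 with fenbuconazole did not pass without any 1 of the replicates or DMSO arrays (lowest limma adjusted p = 0.0582), and with imazalil it did not pass without P1, P2 or P3. SRXN1 with imazalil did not pass without P1, P2 or P3, nor without the P3 DMSO array (limma adjusted p = 0.0588).

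Another comparison sets 10 µM against the mean of the 5 lowest concentrations of the same chemical (15 arrays, 0.001 to 0.1 µM). The 3 common DMSO arrays are not part of that reference mean, but they still enter the spread of the fit. SLC7A11, SRXN1, NQO1 and AKR1B10 were higher at 10 µM fenbuconazole by this measure, SLC7A11, TXNRD1, SRXN1 and AKR1B10 at 10 µM imazalil, and AKR1B10 at 10 µM 2,4-D. In probe sets these were 5 of 20 with fenbuconazole (0.515% of all probe sets passed as higher), 5 of 20 with imazalil (0.599% of all) and 1 of 20 with 2,4-D (0.0567% of all). No member passed as lower.

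SLC7A11 at 10 µM lay above all 15 low-concentration arrays, whose lowest, median and highest levels were 5.68, 5.85 and 6.11 in the fenbuconazole set and the same to 2 decimals in the imazalil set. The differences were 0.85 (SE 0.10, limma adjusted p = 4.61e-06) and 0.78 (SE 0.08, limma adjusted p = 9.79e-07). AKR1B10 at 10 µM also lay above all 15, which ran between 11.68 and 11.93 with fenbuconazole, 11.68 and 12.02 with imazalil and 11.75 and 11.93 with 2,4-D. Its differences were 0.53 (limma adjusted p = 7.83e-06), 0.57 (limma adjusted p = 2.92e-06) and 0.28 (SE 0.06, limma adjusted p = 0.0382). The 2,4-D call of AKR1B10 was lost without P1, P2 or P3 and when arrays were centred on their medians (limma adjusted p = 0.0613).

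SRXN1 differed from the low concentrations by 0.38 with fenbuconazole (limma adjusted p = 0.00384) and 0.53 with imazalil (limma adjusted p = 0.00025). TXNRD1 differed by 0.21 (limma adjusted p = 0.124) and 0.33 (limma adjusted p = 0.00331), and NQO1 by 0.54 with fenbuconazole (limma adjusted p = 0.0228). NQO1 differed by 0.54 with 2,4-D as well (limma adjusted p = 0.0659, and 0.013 with the P code as a block). The NQO1 call with fenbuconazole was lost in 3 of 11 alternative settings (highest limma adjusted p = 0.653). The TXNRD1 call with imazalil was also lost in 3 of 11 (highest limma adjusted p = 0.46). The SRXN1 call was lost in 2 of 11 with fenbuconazole (highest limma adjusted p = 0.426) and in 1 of 11 with imazalil (limma adjusted p = 0.0984). SLC7A11 217678_PM_at lost its call in 1 of 10 with each fungicide. The other 2 NQO1 probe sets did not pass with fenbuconazole. GCLM, GCLC, HMOX1 and ME1 did not pass in any of the 3. Without P2 the count became 2 with fenbuconazole and 2 with imazalil, and without P3 it became 3 with fenbuconazole.

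**Figure D3:**
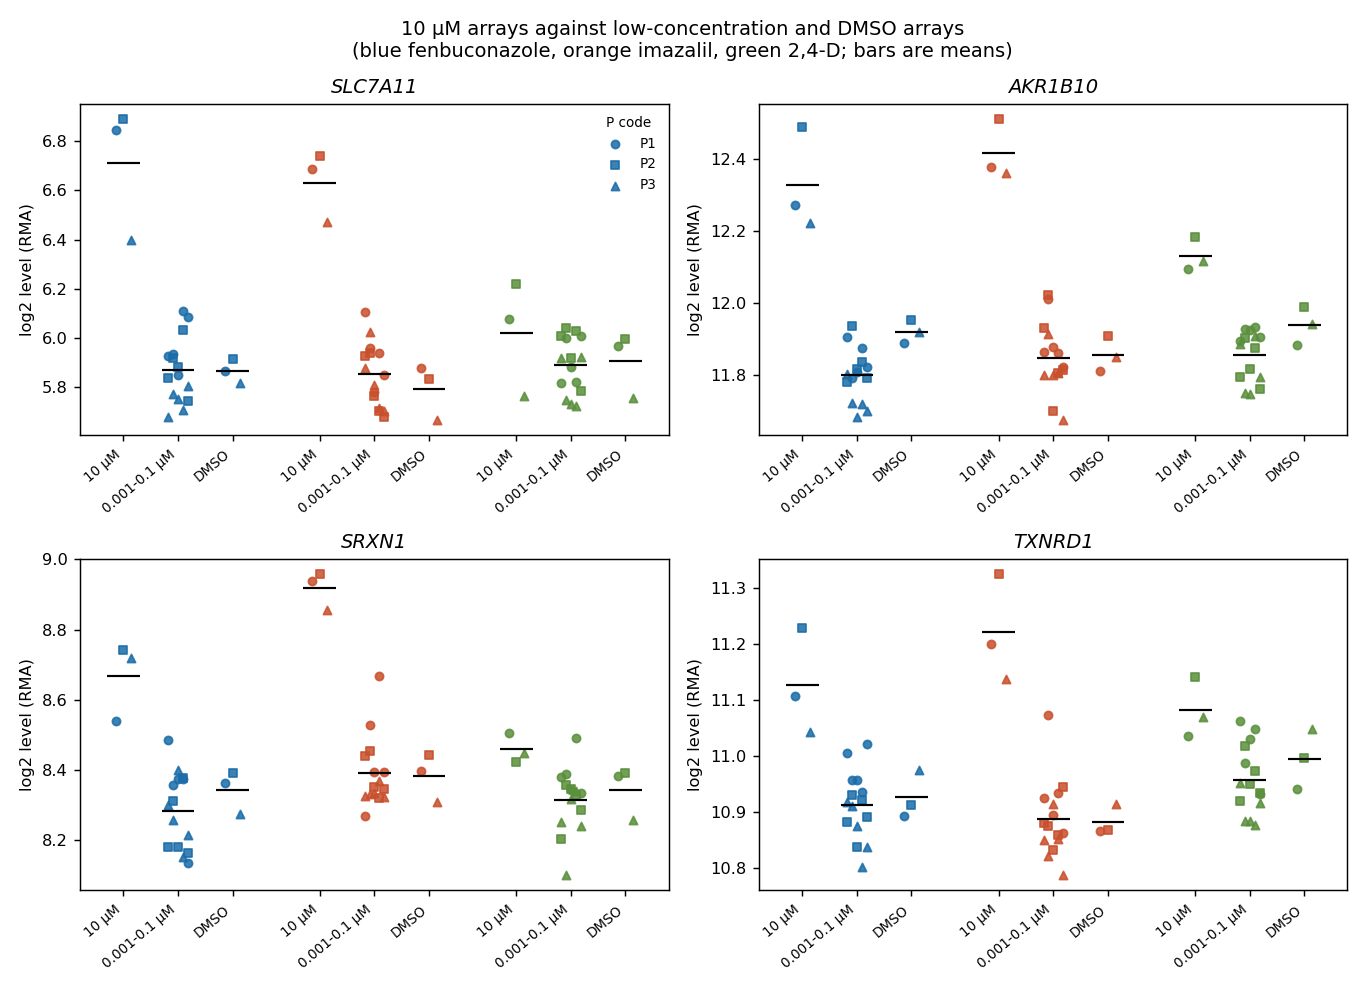
Log2 levels (y axis) of SLC7A11, AKR1B10, SRXN1 and TXNRD1 in the 10 µM arrays, the 15 arrays of the 5 lowest concentrations and the 3 DMSO arrays of each set (x axis). Symbols give the P code and bars the group means. SLC7A11 and AKR1B10 at 10 µM of either fungicide lie clear of the low-concentration and DMSO arrays.

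The members passed against DMSO at the highest concentration only. At 0.001 to 3 µM, 0 of the 20 probe sets passed against DMSO with any chemical. Over all probe sets the shares passing there were 0%, apart from 0.00366% at 3 µM fenbuconazole, 0.00731% at 1 µM and 0.0366% at 3 µM imazalil, and 0.00183% at 0.01 and at 3 µM 2,4-D. At 3 µM imazalil 8 of the 20 had an unadjusted p under 0.05, as had 5.28% of all probe sets. There SLC7A11 differed from DMSO by 0.34, HMOX1 by 0.37, SRXN1 by 0.30, AKR1B10 by 0.26 and TXNRD1 by 0.18, with 3 of 3 arrays above all DMSO arrays for each and limma adjusted p between 0.726 and 0.915. The share of all probe sets with such a separation was not counted, so it only describes these arrays.

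Against the 5 lowest concentrations 0 members passed at 3 µM, where the shares over all probe sets were 0.00914% with fenbuconazole, 0.0822% with imazalil and 0% with 2,4-D. The nearest was AKR1B10 at 3 µM imazalil, with a difference of 0.27 (limma adjusted p = 0.139). In the fenbuconazole set SLC7A11 at 3 µM had 5.96, 6.04 and 5.98, inside the range of the low concentrations.

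The moderated F over the 9 concentrations passed for 2 probe sets with fenbuconazole (0.232% of all), SLC7A11 209921_PM_at (limma adjusted p = 0.00566) and AKR1B10 (limma adjusted p = 0.00974). It passed for 4 with imazalil (0.214% of all), both brighter SLC7A11 probe sets, SRXN1 and AKR1B10, and for 0 with 2,4-D (0.00548% of all), where 4 of the 20 had an unadjusted p under 0.05 (7.01% of all). The slope on log10 concentration over the 27 treated arrays passed for 3 with imazalil (0.424% of all in either direction), for 0 with fenbuconazole (0.0475%) and for 0 with 2,4-D (0.00914%). At an unadjusted p under 0.05 the slope counts were 10 of the 20 with fenbuconazole (7.11% of all) and 3 of the 20 with 2,4-D (5.58% of all). The 3 that passed with imazalil were HMOX1, SRXN1 and AKR1B10, each rising by 0.10 per unit of log10 imazalil concentration (limma adjusted p = 0.0423, 0.0453 and 0.0423). The slope of SLC7A11 was 0.12 with imazalil (limma adjusted p = 0.0994) and 0.14 with fenbuconazole (limma adjusted p = 0.127), and did not pass. Without P1, P2 or P3 no slope passed.

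Differences between chemicals at 10 µM were tested for 3 pairs on the 81 treated arrays, each after subtraction of the DMSO mean of its set, with p-values adjusted over all probe sets of a pair. SLC7A11 was higher with either fungicide than with 2,4-D, by 0.73 in both cases for 209921_PM_at (limma adjusted p = 5.16e-05 with fenbuconazole and 9.49e-05 with imazalil). SRXN1 and AKR1B10 were higher with imazalil than with 2,4-D, by 0.42 (limma adjusted p = 0.00998) and 0.37 (limma adjusted p = 0.00268). In all, 2 of 20 probe sets differed between fenbuconazole and 2,4-D (0.356% of all) and 4 of 20 between imazalil and 2,4-D (0.389% of all). The DMSO arrays are shared between the sets, and their own spread is left out of these tests.

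Between fenbuconazole and imazalil 0 of 20 passed (0.269% of all), and 4 of the 20 had an unadjusted p under 0.05 (6.41% of all). The difference in SLC7A11 was 0.01, with a 95% interval of -0.23 to 0.25. HMOX1 differed by -0.32 (95% interval -0.55 to -0.09, limma adjusted p = 0.471), SRXN1 by -0.21 (-0.39 to -0.03) and AKR1B10 by -0.15 (-0.30 to -0.01), fenbuconazole being the lower in each.

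Some levels also differed between replicate codes. In a model with concentration and P code, 1 of 20 probe sets differed between codes in the fenbuconazole set (2.86% of all), 0 of 20 in the imazalil set (3.13%) and 1 of 20 in the 2,4-D set (4.82%). An unadjusted p under 0.05 was reached by 4 of the 20 in the fenbuconazole set (15.5% of all), 5 in the imazalil set (14.8%) and 5 in the 2,4-D set (17.2%). The 2 that passed were SLC7A11 209921_PM_at with fenbuconazole, with P3 at -0.14 from its group means (limma adjusted p = 0.0383), and HMOX1 with 2,4-D, with P1 at 0.13 (limma adjusted p = 0.00613).

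Across the 27 treated conditions, which share the 3 DMSO arrays, the log2 fold changes of SLC7A11, TXNRD1, SRXN1 and AKR1B10 ran together, with Pearson r between 0.88 and 0.96. NQO1 had r between 0.65 and 0.79 with these 4, and GCLC between -0.57 and -0.62. GCLM (0.14 to 0.34), HMOX1 (0.08 to 0.31) and ME1 (-0.02 to 0.07) had weak values. These values are a description over conditions in which the 10 µM points stand far from the rest.

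The regulators of the pathway were measured too. Of 10 listed, 9 were in the annotation and 0 passed in any of the comparisons at 10 µM. NFE2L2 itself differed from DMSO by 0.29 at 10 µM fenbuconazole (95% interval 0.07 to 0.51), 0.37 at 10 µM imazalil (0.11 to 0.62) and 0.07 at 10 µM 2,4-D (-0.12 to 0.26). KEAP1 differed by 0.24, 0.36 (limma adjusted p = 0.0794) and 0.01 with fenbuconazole, imazalil and 2,4-D. MAFG, a small MAF partner named after its values were seen, differed by 0.64, 0.71 (limma adjusted p = 0.0519) and 0.37. NRF2 is controlled largely at the level of its protein, which arrays do not measure. All 12 listed partners in cystine and glutathione handling were measured and 0 passed at 10 µM. They include SLC3A2, the heavy chain that anchors SLC7A11 in the membrane, at 0.21 (SE 0.15), 0.43 (SE 0.18) and 0.05 (SE 0.13).

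Of 32 other genes widely used as NRF2 targets, 30 were measured. Against DMSO 1 rose at 10 µM fenbuconazole, 5 at imazalil and 0 at 2,4-D, and none fell. Of all probe sets 0.256%, 0.254% and 0% passed as higher there. These shares cover all probe sets, while the list holds the brightest probe set of each gene. In a fit with 1 probe set a gene, 127, 185 and 0 of 19774 passed in either direction. The list medians were 0.11, 0.20 and 0.02. PGD, an enzyme of the NADPH-producing pentose phosphate pathway, rose by 0.50 (limma adjusted p = 0.0116) with fenbuconazole and 0.48 (limma adjusted p = 0.0114) with imazalil. GPX2, a glutathione peroxidase, rose by 1.05 with imazalil (SE 0.10, limma adjusted p = 2.52e-07), TRIM16 by 0.61 (limma adjusted p = 0.000504) and PIR by 0.52 (limma adjusted p = 0.0237). The fifth, named after its value was seen, was ABCC2, an efflux pump of conjugates, at 0.59 (limma adjusted p = 0.0418).

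Against the 5 lowest concentrations 6 of the 30 rose and 1 fell at 10 µM fenbuconazole, 9 rose at imazalil and 0 passed at 2,4-D. Of all probe sets 1.06%, 1.2% and 0.225% passed there in either direction. In the fit with 1 probe set a gene, which is closer to the list, 448, 581 and 99 of 19774 passed. GPX2 differed by 0.48 with fenbuconazole and 1.12 with imazalil. The one that fell was ABCC3, a transporter of the basolateral membrane, at -0.33 with fenbuconazole (limma adjusted p = 0.00438).

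**Figure D4:**
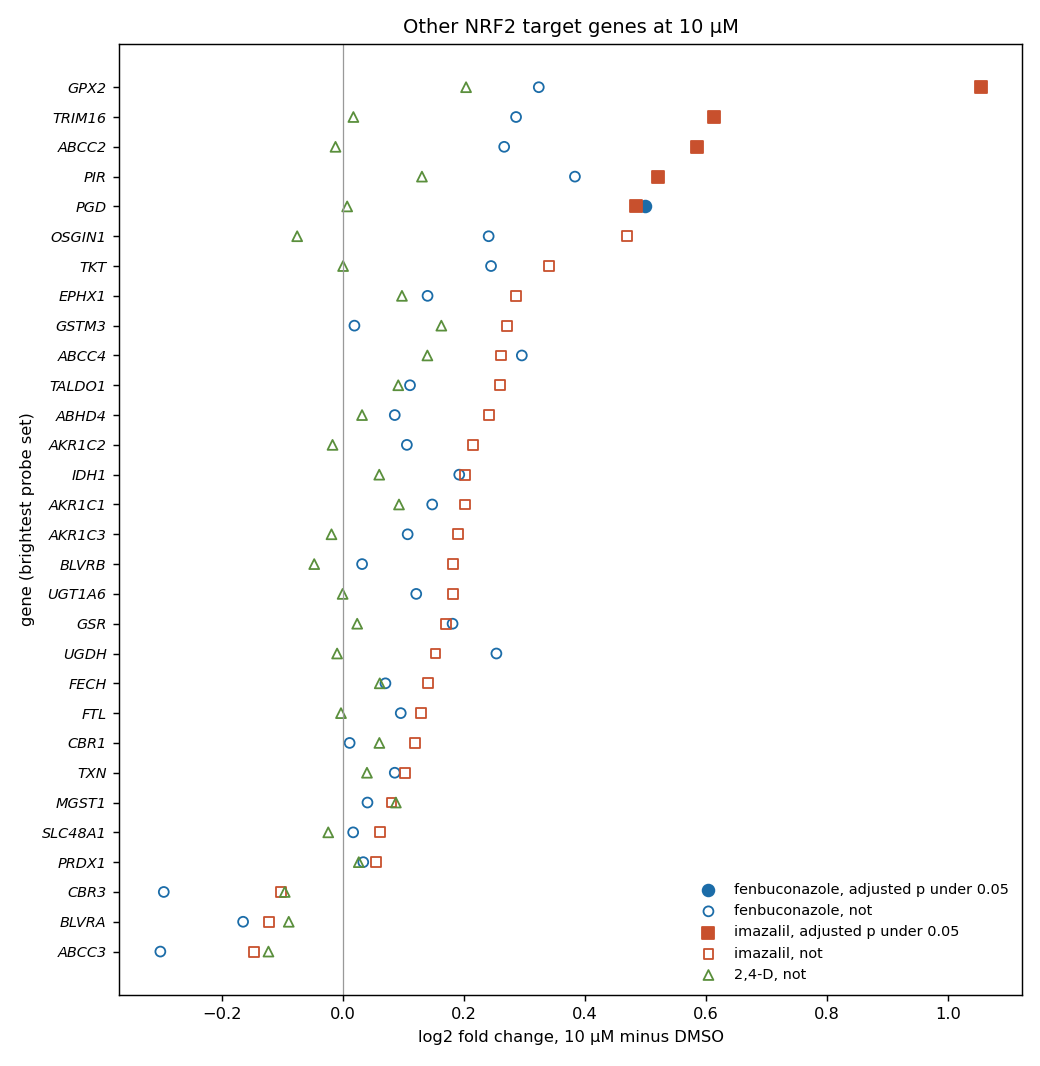
Log2 fold change at 10 µM against DMSO (x axis) of the 30 other NRF2 target genes measured (y axis, ordered by the imazalil value) for fenbuconazole, imazalil and 2,4-D. Filled points had an adjusted p under 0.05 over all probe sets, and GPX2 with imazalil lies farthest right.

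Markers of cell types were read beside these changes, since in bulk RNA a shift in cell types and a change per cell cannot be told apart. The mean level of the 7 hepatocyte markers measured lay between 12.51 and 12.68 in the 10 µM fenbuconazole arrays, against 12.60 and 12.65 in DMSO. It lay between 12.49 and 12.63 at 10 µM imazalil, against 12.58 and 12.64 in DMSO, and 0 of 7 passed in limma with any chemical. Of 6 biliary markers 1 passed, SPP1, which rose by 0.53 with fenbuconazole and 0.86 with imazalil. The list mean was 5.34 to 5.51 at 10 µM fenbuconazole, against 5.18 to 5.32 in DMSO, and 5.39 to 5.42 at 10 µM imazalil, against 5.13 to 5.26 in DMSO.

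With imazalil, COL3A1, 1 of 7 mesenchymal markers, fell by 0.82 (list mean 5.77 to 6.06, against 5.95 to 6.26 in DMSO), and CD14, 1 of 6 immune markers and a gene that hepatocytes also express, rose by 0.88 (list mean 3.17 to 3.39, against 3.19 to 3.22 in DMSO). None of 5 endothelial markers passed in limma. The part of these shifts in the changes of the 9 genes was not tested.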

How the data were processed

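HepaRG RNA was hybridised to single-channel arrays. The authors ran RMA separately by chemical and deposited log2 values, in 90 columns that hold 81 treated arrays and 3 physical DMSO arrays, repeated in every set. RMA and Partek are named in the submitters' processing notes, their versions not given in the sources used here. Arrays have no counting depth, and their number limits the precision.

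A mean for each concentration was fitted over a set's 30 arrays with limma 3.58.1 in R 4.3.3, with Benjamini-Hochberg adjustment over 54715 probe sets, and the script was tested on simulated data. Figures used matplotlib 3.10.9. All member probe sets were tested, and the one with the highest mean is given array by array. Of other lists up to 4 genes a list and comparison with the smallest adjusted p are named, and NFE2L2, KEAP1 and SLC3A2 always. The members, lists and tests were chosen with earlier results of these data known.

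The study's supplement describes replicates as independent experiments. To check pairing, arrays of 1 P code were correlated after removal of concentration means. The average r was 0.0979 (fenbuconazole), 0.094 (imazalil) and 0.117 (2,4-D). Between 10 µM and DMSO arrays it was over 0.1 in every pair with imazalil only (0.143 to 0.246), against 0.012 to 0.222 with fenbuconazole and -0.184 to 0.242 with 2,4-D. The P code as a block was tried as an alternative, with other filters, moderation, centring and left-out arrays. The 2,4-D title numbers differ from the P codes at 6 concentrations. The P2 samples at 0.001 and 0.003 µM 2,4-D share a sample code in their labels.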

Additional observations from a re-analysis of the deposited data

Results flagged for a closer look

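A test of the difference itself separated the chemicals at 10 µM for 6 combinations of probe set and pair. SLC7A11 209921_PM_at was higher with fenbuconazole than with 2,4-D by 0.73 (SE 0.12, limma adjusted p = 5.16e-05), with 3 of 3 fenbuconazole arrays and 2 of 3 2,4-D arrays above all DMSO arrays of their sets. SLC7A11 217678_PM_at differed in the same pair by 0.80 (SE 0.18, limma adjusted p = 0.0152). Between imazalil and 2,4-D, SLC7A11 209921_PM_at differed by 0.73 (SE 0.12, limma adjusted p = 9.49e-05) and 217678_PM_at by 0.78 (SE 0.18, limma adjusted p = 0.02). In that pair SRXN1 differed by 0.42 (SE 0.09, limma adjusted p = 0.00998) and AKR1B10 by 0.37 (SE 0.07, limma adjusted p = 0.00268). The concentrations matched, and all 3 chemicals are set against the same 3 DMSO arrays.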

How the results depend on the processing

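At 10 µM against DMSO or the 5 lowest concentrations, no difference of a called member changed sign under any alternative. The P code as a block removed none of these calls. For slopes, F tests, pairs of chemicals and P codes only the counts were compared. Counts of member probe sets with fenbuconazole at 10 µM against DMSO were 3 in the report, 0 with only the 6 arrays of the pair, and 0 to 2 when 1 replicate or DMSO array was left out. With imazalil they were 4, 1 with the 6 arrays, and 0 to 4. The 6 arrays gave 60 calls over all probe sets with fenbuconazole and 47 with imazalil, against 189 and 222 in the report. Over all alternatives the imazalil count reached 5, and TXNRD1 201266_PM_at passed in 5 of 12. Against the 5 lowest concentrations the fenbuconazole count reached 6 over all alternatives. The left-out range there was 2 to 5 with fenbuconazole and 2 to 5 with imazalil. With 2,4-D it was 0 to 2, and the count of 1 became 2 with the block, with only probe sets above the median level or with trended robust moderation, and 0 with centred arrays. The F count ranged over 0 to 2 with fenbuconazole and 0 to 3 with imazalil when arrays were left out, and was 1 with 2,4-D under trended moderation. Over all alternatives the imazalil F count reached 5. The imazalil slope count of 3 became 5 with the block, the brighter probe sets or trended moderation and 0 without any 1 replicate. The fenbuconazole slope count of 0 became 1 with the brighter probe sets or 1 probe set a gene. At 3 µM imazalil against low concentrations it became 1 with trended moderation. Between fenbuconazole and 2,4-D the count of 2 was 1 with 1 probe set a gene and 0 to 2 with arrays left out, and between imazalil and 2,4-D the count of 4 was 1 to 5. Counts between P codes were 2 with the brighter probe sets in all 3 sets. With trended moderation they were 0 with fenbuconazole, 1 with imazalil and 2 with 2,4-D, and with 1 probe set a gene 2 with 2,4-D. The causes were not tested. The 3 arrays in each group limit what small changes can be seen.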

Other observations

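Genes whose log2 fold changes over the 27 conditions were most like the mean of the 9 members, among probe sets above the median level, were AKR1C1 (Pearson r = 0.97), CYP3A7 (0.95), ABCB1 (0.95), CYP3A4 (0.95) and ZSCAN25 (0.94). Each gene is given by its probe set with the highest r, which need not be its brightest. CYP3A4 and CYP3A7 are drug-metabolizing cytochromes and ABCB1 is a drug efflux pump. CYP3A4 differed from DMSO by 2.41 at 10 µM fenbuconazole, 2.80 at imazalil and 0.42 at 2,4-D, and AKR1C1 by 0.24, 0.32 and 0.08. The AKR1C1 and CYP3A4 probe sets carry an x suffix and can bind related family members. All conditions share the DMSO arrays, and here too the 10 µM points stand far from the rest.

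Lists to which members also belong moved in part. At 10 µM against DMSO 0.345% of all probe sets passed in either direction with fenbuconazole and 0.406% with imazalil. In the fit with 1 probe set a gene, which is closer to these lists, 127 and 185 of 19774 passed. Of 13 ATF4 targets, genes of amino acid supply and the integrated stress response, 3 rose and 1 fell at 10 µM fenbuconazole, and 2 rose and 1 fell at imazalil. TRIB3 rose by 1.11 with fenbuconazole, PHGDH by 0.56 and 0.66 with fenbuconazole and imazalil, and INHBE fell by 1.60 and 1.52. Of 11 lipogenic genes 4 rose with fenbuconazole, with ACSS2 at 1.23 and ELOVL6 at 1.05, and 1 with imazalil. ME1 did not pass, but its 3 probe sets lay below the median level, where a change could have gone unseen. Of 7 aryl hydrocarbon receptor targets 2 rose with fenbuconazole and 3 with imazalil. CYP1A1 rose by 2.35 and 5.41 there, and the NQO1 values at the same concentration were 0.41 and 0.27.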
